A study of Mus musculus with 2 samples.

Results

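The Ly6 genes *Ly6a*, *Ly6c1*, *Ly6c2* and *Ly6e* and the activation surface genes *Cd44*, *Cd69*, *Itgb1* and *Cd5* were followed in CD8+ tumor-infiltrating lymphocytes (TIL) of lean and obese mice. These 8 genes of the 32285 in the deposited tables were matched by symbol. The matching used no measured values, but the genes were chosen with earlier results of these data known. CD8+ TIL came from male C57BL/6 mice aged 16 weeks that had received normal chow (NC, lean) or western diet (WD, obese) for 12 weeks and carried B16-F0 tumors, a transplanted mouse melanoma line, until day 14. The cells were enriched on CD8 beads and sorted by CD8 staining, and the mRNA of single cells was counted as unique molecular identifiers (UMIs) from the 3′ end of transcripts. Each diet was represented by 1 library, and the number of mice behind it was not given in the sources used here. No test between diets could therefore be made, and every interval below is a 95% interval for counting error only.

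Ly6 proteins are small glycoproteins held in the membrane by a lipid anchor, and several are switched on by interferons. *Ly6a* encodes Sca-1, which activated T cells carry at high levels, and *Ly6c1* and *Ly6c2* encode near-identical forms of Ly6C, a marker of memory and effector CD8+ T cells. CD69 appears within hours of T cell receptor signalling and holds cells in tissue by removing the egress receptor S1PR1. CD44 binds hyaluronan, the β1 integrin encoded by *Itgb1* pairs with α subunits to bind fibronectin and other ligands, and CD5 damps T cell receptor signalling.

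The kept cells had under 7.5% mitochondrial UMIs and between 500 and 50000 UMIs, which left 2456 of 2697 lean and 2289 of 2623 obese cells. They held 27815785 and 28705830 UMIs, with medians of 7958 and 9103 UMIs per cell. All 7 T cell marker genes, among them *Cd8a*, *Cd3e* and *Lck*, were found in both libraries, at a summed level of 6027 CPM (counts per 1000000 UMIs) in the lean and 5304 CPM in the obese library, while melanoma transcripts reached 1.22 and 1.46 CPM and myeloid transcripts 56.3 and 52.5 CPM. A single cell of the obese library held 9157 of the 9193 hemoglobin UMIs, and 2 cell barcodes occurred in both libraries.

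The 4 Ly6 genes lie within 157 kb of chromosome 15 (GRCm38, GENCODE vM21): *Ly6e* (ENSMUSG00000022587) at chr15:74955051-74959905 on the plus strand, and *Ly6a* (ENSMUSG00000075602) at chr15:74994877-74998031, *Ly6c1* (ENSMUSG00000079018) at chr15:75044018-75048830 and *Ly6c2* (ENSMUSG00000022584) at chr15:75108158-75111970 on the minus strand. The other genes lie apart, *Cd44* (ENSMUSG00000005087) at chr2:102811141-102901665, *Cd69* (ENSMUSG00000030156) at chr6:129267325-129275436, *Itgb1* (ENSMUSG00000025809) at chr8:128685654-128733200 and *Cd5* (ENSMUSG00000024669) at chr19:10717116-10739002. None of the 8 overlapped an annotated gene on its own strand, and *Cd44* alone overlapped one, *Gm23731*, on the other strand. *Ly6c1* and *Ly6c2* are the pair that reads could confuse, since the last 400 bases of their longest coding transcripts were 94.8% identical, against 81.8% for *Ly6a* and *Ly6c1* and 44.6% for *Ly6a* and *Ly6e*. Even so, 35 of 311 windows of 90 bases in that stretch (11.3%) occurred in both transcripts, so most windows held at least 1 base that separates them.

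The promoters of this pair are shown because *Ly6c2* gave 17516 and 16655 UMIs in the lean and obese library and its near-identical copy *Ly6c1* gave 1 and 2. Each line gives the 250 bases before the RefSeq transcript start (GRCm38.p6, minus strand, read 5′ to 3′), at chr15:75048838-75049087 for *Ly6c1* and chr15:75111972-75112221 for *Ly6c2*. Capitals mark runs of 12 or more bases present in both.
Ly6c1: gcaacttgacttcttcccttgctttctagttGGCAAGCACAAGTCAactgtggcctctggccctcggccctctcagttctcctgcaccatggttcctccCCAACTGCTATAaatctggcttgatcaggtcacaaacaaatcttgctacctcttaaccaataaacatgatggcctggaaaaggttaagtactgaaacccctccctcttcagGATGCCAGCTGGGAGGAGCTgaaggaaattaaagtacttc
Ly6c2: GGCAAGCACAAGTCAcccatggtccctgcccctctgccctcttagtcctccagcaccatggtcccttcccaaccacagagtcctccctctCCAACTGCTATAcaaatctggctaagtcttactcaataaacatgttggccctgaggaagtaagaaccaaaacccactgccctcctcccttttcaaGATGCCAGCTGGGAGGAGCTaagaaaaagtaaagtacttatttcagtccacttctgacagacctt
The shared runs covered 47 bases, or 18.8% of each sequence, in the same order. The 250 bases of *Ly6c1*, *Ly6c2*, *Cd44*, *Itgb1* and *Cd5* were searched on both strands for the core of the interferon-stimulated response element (GAAA, 2 bases of any kind, GAAA), for TTCNNNGAA (core of the gamma-activated site) and for TGANTCA (core of the AP-1 site), and held none of these letters. Of 32851 promoter entries, 2.98% held the response element core, 7.02% held TTCNNNGAA and 6.75% held TGANTCA. *Ly6a*, *Ly6e* and *Cd69* had no entry.

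The question put to each gene was whether its level differed between lean and obese CD8+ TIL. Over all kept cells, *Ly6a* was the member that differed most. It had 525 CPM in the lean library (interval 516 to 533, from 14600 UMIs) and 268 CPM in the obese library (263 to 275, from 7707 UMIs), a log2 ratio of obese over lean of −0.97 (−1.01 to −0.93). Ratios were ranked over the 2526 genes that reached 50 CPM in either library with no fewer than 20 UMIs in each, and 13 genes had a lower one. *Itgb1* moved the other way, from 211 to 308 CPM, a log2 ratio of 0.55 (0.50 to 0.59), and 37 genes lay above it. *Cd69* had 184 and 260 CPM, a log2 ratio of 0.50 (0.45 to 0.55) that fell just short of the 0.5 limit used for counts before rounding.

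The remaining members differed less. *Ly6e* had 348 CPM in the lean and 400 CPM in the obese library, a log2 ratio of 0.20 (0.16 to 0.24). *Cd44* was at 56.8 and 64.5 CPM, 0.18 (0.09 to 0.28), and this sign turned with cells thinned to 1000 UMIs (−0.12). *Ly6c2* was at 630 and 580 CPM, −0.12 (−0.15 to −0.09), and its sign turned when the 7 T cell marker genes served as the total (0.07). *Cd5* was at 74.5 and 76.6 CPM, 0.04 (−0.05 to 0.13), an interval that spanned 0. *Ly6c1* gave 1 UMI in the lean and 2 UMIs in the obese library, at or below the floor of 3 counts (0.108 and 0.105 CPM), so no ratio was formed. Thus 1 of 7 measured members was lower by 0.5 log2 or more, beside 1.62% of all genes, and 1 of 7 was higher, beside 1.9% of all genes. The median ratio over all genes was 0.02. *Itgb1* did not reach the limit with cells thinned to 2000 UMIs (0.32) or given equal weight (0.41), while *Ly6a* did in both (−0.80 and −0.78).

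**Figure D1:**
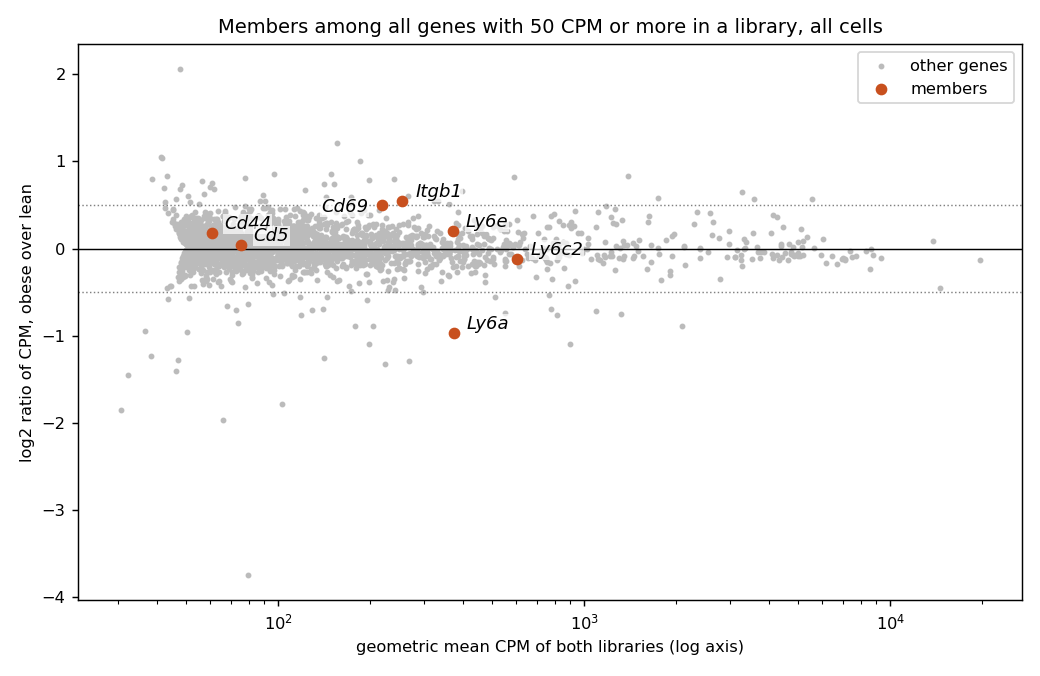
Log2 ratio of obese over lean CPM (vertical axis) against the geometric mean CPM of both libraries (horizontal log axis) for the 2526 genes with 50 CPM or more in a library and 20 UMIs in both, all kept cells, with the members as named orange points and dotted lines at the 0.5 limits. *Ly6a* lies at −0.97 below the main band, *Itgb1* at 0.55 and *Cd69* at 0.50 lie at its upper edge, and *Cd5* lies near 0.

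To describe cell states, cells were grouped by expression without the 8 genes, which gave 6 clusters. Cluster 0 (1292 cells) was led by *Gzma*, *Ifit3* and *Ifit1*, the last 2 being interferon-stimulated genes, and held 20.7% of lean and 34.3% of obese cells. Cluster 1 (1056 cells) was proliferating-like, led by *Pclaf* and *Birc5*, and was the deepest, with a median of 22576.5 UMIs against 11921.5 in cluster 3. Cluster 2 (982 cells) was led by *Tmem108*, *Klra7* and *Lef1* and had too few of the fixed markers among its leading genes for a name, at 23.1% and 18.1%. Cluster 3 (920 cells) was effector-like, led by *Gzmd*, *Penk* and *Gzme*, and held 24.8% of lean but 13.6% of obese cells. Cluster 4 (472 cells) was shallow, with a median of 2640.5 UMIs, and cluster 5 (23 cells) was led by *Ly6d* and *Siglech*, with 11116 CPM of 10 dendritic markers against 308 CPM in the other cells. Levels by cluster are a description, because the clusters were computed from the same cells, and differences between clusters were not tested. CPM is a share of UMIs, so an order of clusters by CPM need not hold for UMIs per cell.

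Among clusters 0 to 3, *Ly6a* was highest by CPM in the effector-like cells of lean mice and lowest in cluster 2. In the lean library its level ran from 684 CPM in cluster 3 through 583 CPM in cluster 1 and 434 CPM in cluster 0 to 144 CPM in cluster 2, and no neighbours in this order had overlapping intervals. In the obese library the steps above cluster 2 were flatter, with 320 CPM in cluster 3, 317 CPM in cluster 0 and 275 CPM in cluster 1, above 89.6 CPM in cluster 2, and clusters 3 and 0 were not separated. The obese level was below the lean level in each of these clusters.

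The other Ly6 genes had other orders over clusters 0 to 3. *Ly6c2* stood highest in cluster 0 (1282 CPM lean, 1174 CPM obese) and next in cluster 2 (1074 and 974 CPM), and was lowest among lean cells in cluster 1 (319 CPM). *Ly6e* went from 505 CPM in cluster 0 to 307 CPM in cluster 1 of the lean library, with clusters 1 and 3 not separated. In the obese library it was at 538 CPM in cluster 0, and clusters 1, 2 and 3 lay between 350 and 373 CPM with overlapping neighbours. The 23 cells of cluster 5 had 2332 CPM of *Ly6c2* in the lean and 1561 CPM in the obese library, above every other cluster, but these were 258 and 422 UMIs from 8 and 15 cells.

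Among clusters 0 to 3, *Cd69* was highest by CPM in clusters 2 and 0 and lowest in the proliferating-like cells. It had 372 CPM in cluster 2 and 351 CPM in cluster 0 of the lean library, which were not separated, against 128 CPM in cluster 3 and 110 CPM in cluster 1. The obese library had the same order at 515, 444, 219 and 141 CPM. At full depth, however, 81.1% of lean cells of cluster 1 had a *Cd69* UMI, against 65.5% in cluster 3. In the obese library these shares were 87.3% and 86.2%. Cluster 1 was the deeper, with medians of 22222 against 11243.5 UMIs in lean and 22842 against 13878.5 UMIs in obese cells. With cells thinned to 2000 UMIs, the lean shares were 21.6% (18.0% to 25.6%) in cluster 1 and 22.5% (19.3% to 26.1%) in cluster 3. The obese shares were then 24.9% (21.4% to 28.7%) and 34.9% (29.7% to 40.5%). The higher full-depth share of cluster 1 was therefore not seen at matched depth. *Itgb1* was highest in cluster 0 (544 CPM lean, 503 CPM obese) and lowest in cluster 2 (98.7 and 109 CPM). *Cd44*, which naive T cells carry at low levels, was lowest in cluster 2 of the obese library (30.8 CPM). Among clusters 0 to 3 it was highest in cluster 0 (73.2 CPM lean, 86.7 CPM obese). Cluster 3 (61.5 CPM lean, 84.2 CPM obese) was not separated from cluster 0 in either library. *Cd5* was at 116 and 109 CPM in cluster 0, and clusters 1, 2 and 3 were not separated from their neighbours, all between 64.7 and 71.6 CPM.

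**Figure D2:**
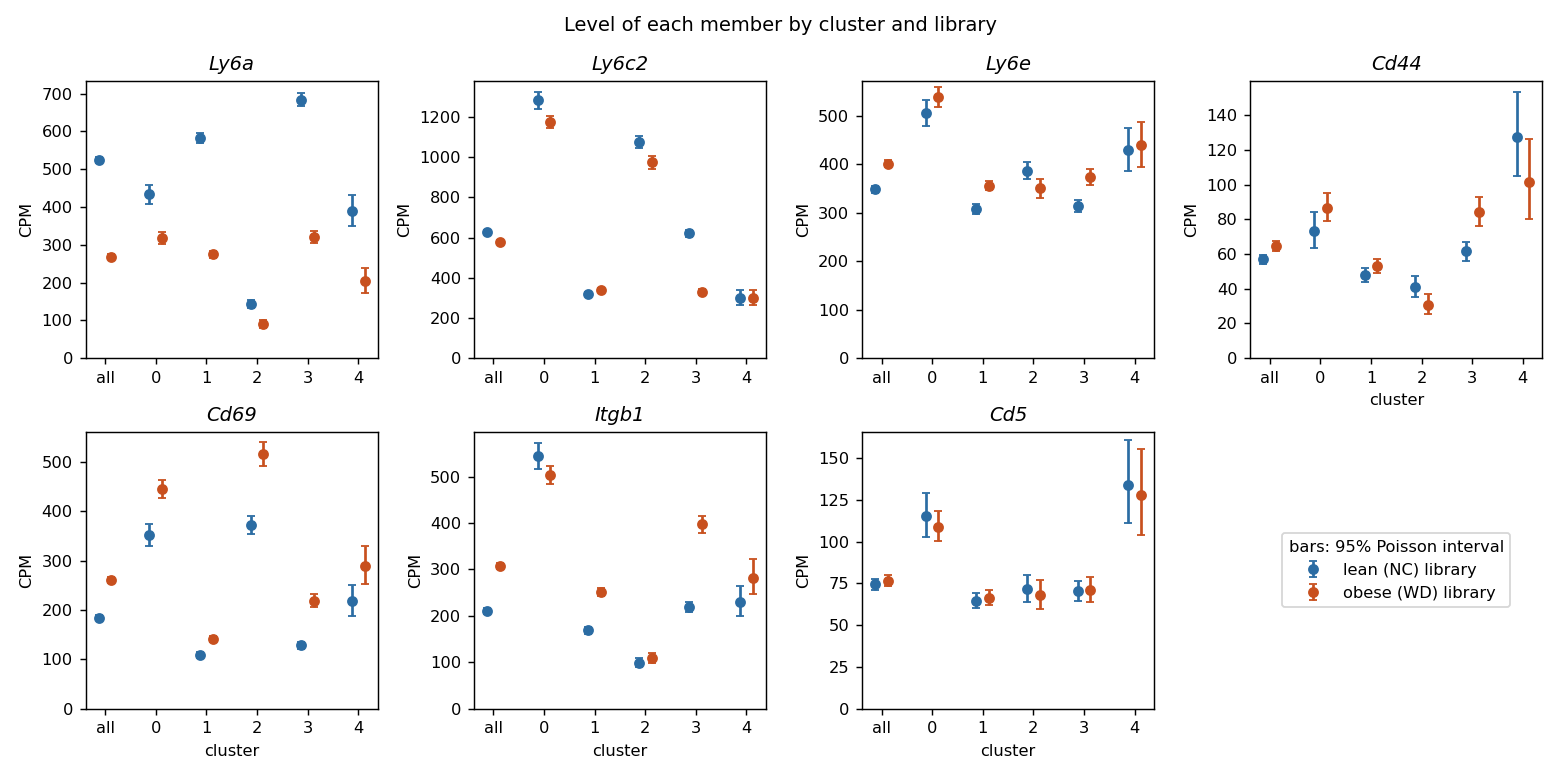
CPM of each member (vertical axes from 0) over all kept cells and in clusters 0 to 4 (horizontal axes), lean library in blue and obese library in orange, with bars for the 95% Poisson interval of the summed UMIs. *Ly6a* is lower in the obese library in every column, *Cd69* is higher in every column, and the *Ly6c2* points part in cluster 3, at 622 CPM in the lean and 328 CPM in the obese library.

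Within clusters the obese over lean ratio of *Ly6a* was negative throughout, and that of *Cd69* positive throughout. *Ly6a* had log2 ratios of −0.45 (−0.56 to −0.34) in cluster 0, −1.09 (−1.14 to −1.03) in cluster 1, −0.68 (−0.88 to −0.48) in cluster 2, −1.09 (−1.18 to −1.01) in cluster 3 and −0.93 (−1.21 to −0.66) in cluster 4. *Cd69* had 0.34 (0.23 to 0.45), 0.36 (0.26 to 0.46), 0.47 (0.37 to 0.56), 0.77 (0.65 to 0.90) and 0.41 (0.13 to 0.70) in the same clusters. The interval of *Cd5* spanned 0 in all 5. Its ratio in cluster 2 depended on the processing, however, and ran from −0.51 to 0.02 over 7 alternatives.

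*Ly6c2* stood out in the effector-like cluster. There it had 622 CPM in the lean library (605 to 639) and 328 CPM in the obese library (312 to 344), a log2 ratio of −0.92 (−1.01 to −0.84), with 26 of 2526 genes lower. In clusters 0, 1, 2 and 4 its ratios were −0.13, 0.10, −0.14 and 0.00. *Itgb1* also varied between clusters, with −0.11 (−0.21 to −0.02) in cluster 0, 0.14 (−0.06 to 0.35) in cluster 2 and 0.58 (0.50 to 0.66) in cluster 1, and it reached 0.86 (0.77 to 0.95) in cluster 3. *Cd44* was at 0.45 (0.26 to 0.64) in cluster 3 but −0.41 (−0.77 to −0.06) in cluster 2, where it rested on 183 and 107 UMIs. With cells thinned to 2000 UMIs these ratios were 0.047 and −0.26.

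Counted against all genes, no member passed the 0.5 limit in cluster 0, where 1.61% of genes were lower and 3.14% higher. In cluster 1, *Ly6a* was lower, beside 2.47% of genes, and *Itgb1* higher, beside 1.93%. In cluster 2, *Ly6a* alone of 6 members measured at that depth was lower, beside 1.46%, and none was higher, beside 3.08%. With finer clusters given the same weight in both libraries, the *Ly6a* ratio of cluster 2 was −0.42, short of the limit. In cluster 3, *Ly6a* and *Ly6c2* were lower, beside 3.92% of genes, and *Cd69* and *Itgb1* higher, beside 5.98%.

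**Figure D3:**
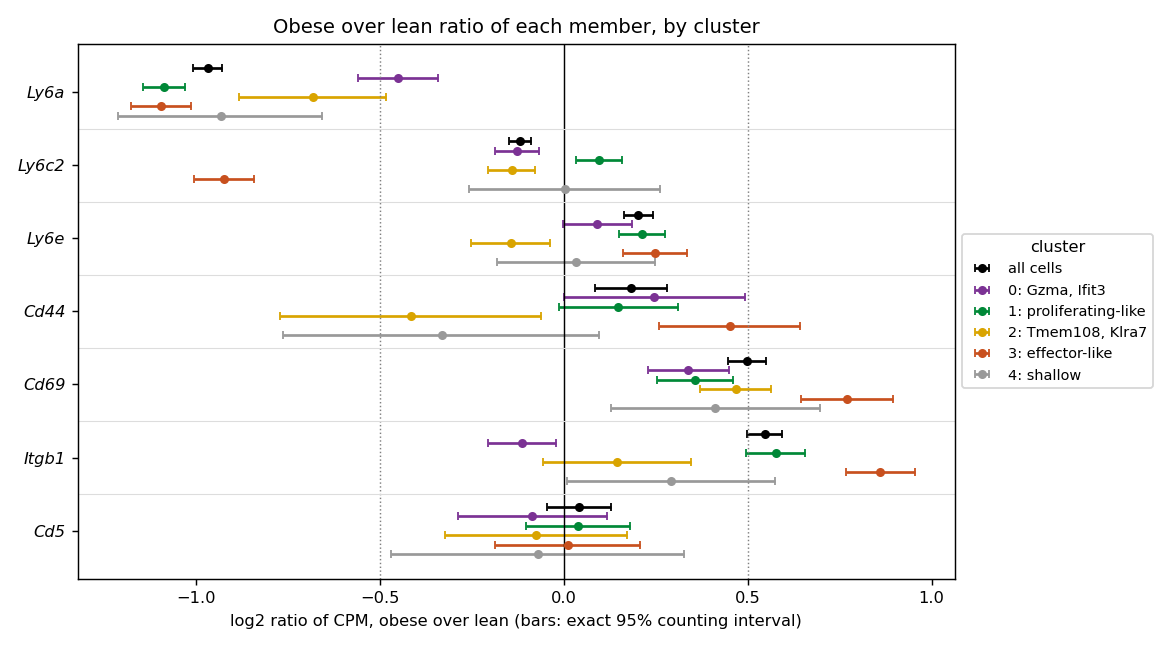
Log2 ratio of obese over lean CPM (horizontal axis) of each member over all kept cells (black) and in clusters 0 to 4 (colors), with bars for the exact 95% counting interval and dotted lines at the 0.5 limits. All *Ly6a* points lie left of 0, all *Cd69* points right of 0, the *Ly6c2* point of cluster 3 lies apart at −0.92, and the *Itgb1* points spread from −0.11 to 0.86.

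The effector-like cluster was not the same mix of cells in both libraries. Among 14 finer clusters, the cells of cluster 3 fell mainly into finer cluster 1, led by *Gzmd* and *Gzme*, and finer cluster 7, led by *Cd81* and *Csf2*. Finer cluster 1 made up 81.2% of the lean but 52.2% of the obese cells of cluster 3, and finer cluster 7 made up 16.4% and 43.3%. The pair differed in the members: in the lean library finer cluster 1 had 742 CPM of *Ly6a*, 700 CPM of *Ly6c2* and 147 CPM of *Itgb1*, and finer cluster 7 had 336, 222 and 637 CPM. Inside finer cluster 1, *Ly6c2* went from 700 to 404 CPM, a log2 ratio of −0.79 (−0.89 to −0.70), and *Itgb1* from 147 to 203 CPM, 0.47 (0.32 to 0.62). Inside finer cluster 7, *Ly6c2* was at 222 and 235 CPM, 0.08 (−0.14 to 0.30), and *Itgb1* at 637 and 690 CPM, 0.12 (−0.01 to 0.24). With the finer clusters given the same weight in both libraries, the ratio of *Itgb1* in cluster 3 was 0.29 in place of 0.86, that of *Ly6c2* −0.73 in place of −0.92, and that of *Ly6a* −0.92 in place of −1.09. Over all cells that weighting gave 0.30 for *Itgb1*, in place of 0.55.

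Over the 11 finer clusters with at least 50 cells in each library, *Ly6a* was lower in the obese library in 11 of 11, beyond the counting interval in 10, with log2 ratios from −1.37 to −0.32. *Cd69* was higher in 11 of 11, beyond the interval in 10, from 0.20 to 0.79. *Ly6c2* was lower in 5 and higher in 6, from −0.79 in finer cluster 1 to 0.45 in finer cluster 4 (266 to 364 CPM), which was led by *Nusap1* and histone genes. *Itgb1* was higher in 7 and lower in 4, and at its highest in finer cluster 4 (160 to 287 CPM, 0.84). *Cd5* passed the interval in 0 of 11. The finer clusters are parts of the same 2 libraries and are not replicates. The share of all genes with the same sign in every finer cluster is not set beside these counts.

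These finer groups also spread the Ly6 genes apart. Finer cluster 9, led by the interferon-stimulated genes *Rsad2* and *Ifit3b*, had the highest *Ly6a* (1044 CPM lean, 783 CPM obese), *Ly6c2* (1504 and 1516 CPM) and *Ly6e* (639 and 833 CPM). Its *Cd69* level (441 and 764 CPM) was the highest in the obese library, while in the lean library finer cluster 8 stood first at 468 CPM, with overlapping intervals. Finer cluster 8, led by the NK-type receptor genes *Klra7* and *Klra1*, had 1227 and 1320 CPM of *Ly6c2* but only 48.6 and 33.2 CPM of *Ly6a*. This was the lowest *Ly6a* of the 11, with intervals that overlapped those of finer cluster 6 in both libraries. Finer cluster 6, led by *Igfbp4* and *Rflnb*, had 4987 CPM of 10 naive- or memory-like markers against 898 CPM in the other cells. It had the lowest *Cd44* (21.1 and 12.3 CPM), *Itgb1* (73.0 and 70.8 CPM) and *Ly6e* (285 and 271 CPM), with 75.9 and 49.8 CPM of *Ly6a*. For these 3 lowest genes its interval overlapped that of the next cluster in the lean but not in the obese library. Its *Ly6c2* level of 346 and 315 CPM lay well below that of the *Gzmm*-led finer cluster 3, at 1201 and 1337 CPM. The mix of these groups in cluster 2 also differed: finer cluster 6 made up 19.9% of its lean and 47.1% of its obese cells, and at equal weights the *Ly6c2* ratio of cluster 2 was 0.18 in place of −0.14.

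**Figure D4:**
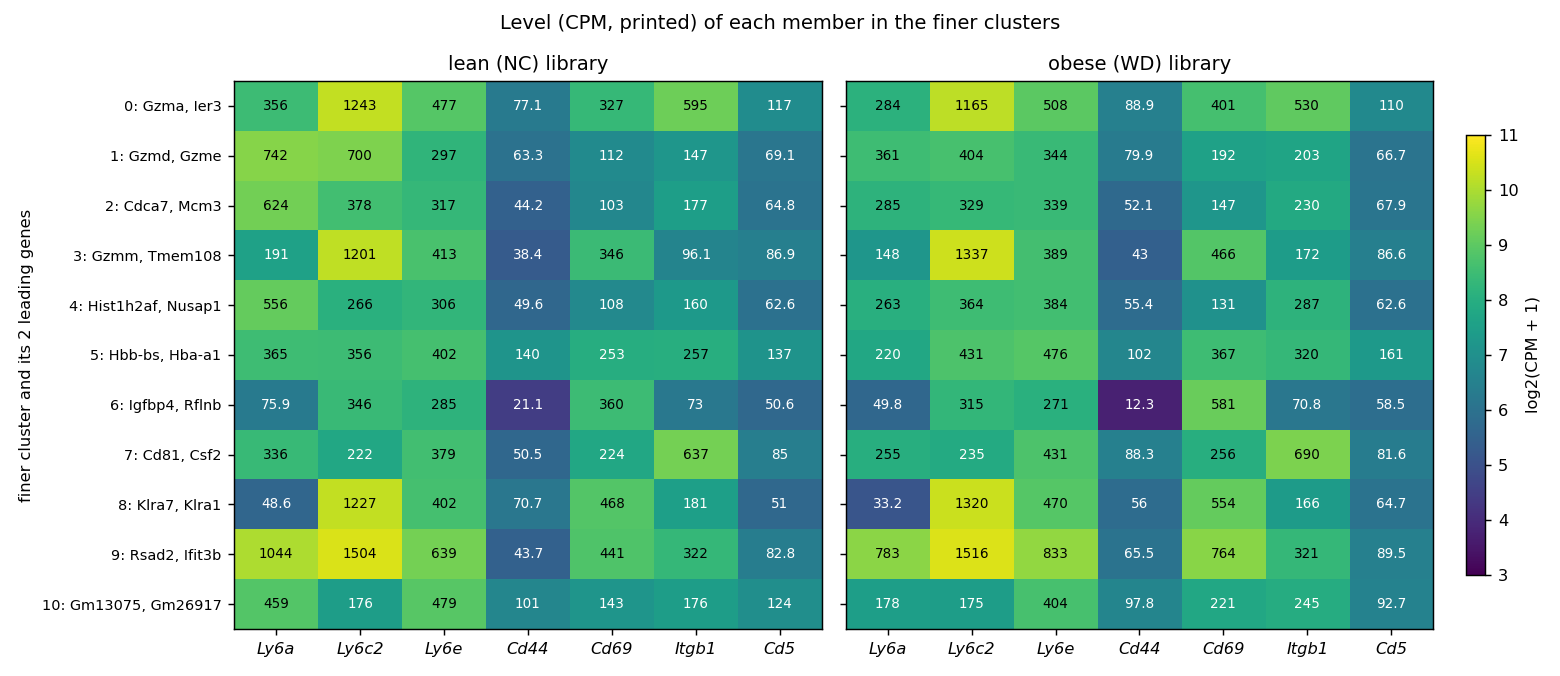
CPM (printed) of the members, in columns, in the 11 finer clusters with at least 50 cells in each library, in rows, with the lean library on the left and the obese library on the right. Colors give log2(CPM + 1), row names give the 2 leading genes, and the hemoglobin genes that name row 5 come from a single obese cell. *Ly6a* and *Ly6c2* are both high in row 9, while row 8 has 1227 CPM of *Ly6c2* beside 48.6 CPM of *Ly6a* in the lean library.

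The share of cells with a UMI was also taken at matched depth. With every cell thinned to 2000 UMIs, 63.3% of lean (59.4% to 67.2%) and 38.1% of obese (32.7% to 43.8%) cells of cluster 3 had a *Ly6a* UMI, against 93.1% and 81.1% before thinning at median depths of 11243.5 and 13878.5 UMIs. For *Ly6c2* the thinned shares were 54.1% (50.1% to 58.1%) and 31.1% (26.0% to 36.5%). *Itgb1* went from 30.4% (26.8% to 34.3%) to 45.2% (39.6% to 50.9%) and *Cd69* from 22.5% (19.3% to 26.1%) to 34.9% (29.7% to 40.5%). *Cd44* did not follow its ratio, with 12.01% (9.53% to 14.9%) of lean and 11.9% (8.49% to 16.0%) of obese cells of cluster 3. *Ly6e* in cluster 2, whose log2 ratio was −0.14, had shares of 46.1% (41.97% to 50.3%) and 51.2% (46.3% to 56.1%). The lowest *Ly6a* share of clusters 0 to 3 was 10.6% in cluster 2 of the obese library, at a median depth of 7901.5 UMIs, and no cell type known to lack the gene was present in number to give the level of free RNA.

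*Ly6a* was found more often in cells that also had *Ly6c2*, again at 2000 UMIs per cell. In cluster 0, 44.8% of lean cells with a *Ly6c2* UMI also had a *Ly6a* UMI (39.3% to 50.4%), against 25.7% of cells without one (18.9% to 33.4%), and the obese library had 44.1% (39.5% to 48.8%) and 26.4% (21.2% to 32.2%). The share was higher with *Ly6c2* in 8 of 8 sets made of clusters 0 to 3 and both libraries, with intervals apart in 5. With *Itgb1* in place of *Ly6c2* the share was higher in 5 of 8 sets, with intervals apart in 0, and lower with intervals apart in 1. In that set, cluster 3 of the lean library, 51.9% of cells with an *Itgb1* UMI had a *Ly6a* UMI (44.4% to 59.3%), against 68.3% without (63.7% to 72.7%), and in the obese library the values were 31.2% (23.7% to 39.5%) and 43.9% (36.3% to 51.6%), whose intervals overlapped.

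Because Ly6 genes are known interferon targets, cells thinned to 2000 UMIs were placed in 3 ranges by their summed UMIs of 38 interferon-stimulated genes (3 or fewer, up to 7, and above 7). *Ly6a* went from 305 through 442 to 698 CPM over these ranges in the lean library and from 173 through 235 to 390 CPM in the obese library. The highest range was 2.29 times the lowest in lean and 2.26 times in obese cells, and 2.17 and 2.88 times at 1000 UMIs. Within clusters at 2000 UMIs the climb was 4.64 times in lean and 1.87 times in obese cells of cluster 0, 1.41 and 1.71 times in cluster 1, 3.25 and 1.56 times in cluster 2, and 1.80 and 1.38 times in cluster 3, with obese intervals that spanned no change in clusters 2 and 3. *Ly6c2* went from 571 to 1102 CPM and from 565 to 953 CPM, and *Ly6e* from 291 to 516 CPM and from 373 to 562 CPM. A climb over all cells was not particular to the Ly6 genes. The highest range of *Ly6e* was 1.77 times the lowest in lean and 1.51 times in obese cells, beside 1.64 and 1.43 times for *Itgb1*. *Cd69* had 1.27 and 1.31 times, and *Cd5* 1.48 and 1.27 times, the last with an interval that spanned no change. *Cd44* had 1.27 and 1.26 times, and both intervals spanned no change. *Ifi27l2a* had the most UMIs of the list, at 1079 CPM in the lean and 1477 CPM in the obese library over all kept cells. Cells in the same range were therefore not matched for the other genes of the list. Within the 3 ranges *Ly6a* stayed lower in the obese library, with log2 ratios of −0.82 (−1.03 to −0.61), −0.91 (−1.11 to −0.72) and −0.84 (−0.996 to −0.683). In the lowest range of cluster 0 the sign was opposite, 129 CPM in 112 lean and 221 CPM in 147 obese cells, 0.77 (0.12 to 1.46), and at 1000 UMIs the interval spanned 0 (0.34, −0.50 to 1.23).

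Of the interferon-stimulated list itself, 16 of the 31 genes measured at 10 CPM or more were higher and 15 lower in the obese library, 0 past the 0.5 limit, with a median log2 ratio of 0.005, against 0.035 over 7060 genes. Of those 7060 genes, 4075 were higher and 2985 lower. At 50 CPM or more, 10 of 15 list genes were lower, with a median of −0.11. Over 2526 genes 1149 were lower, with a median of 0.02. The highest of the list were *Ifi27l2a* (0.45) and *Oas3* (0.39), and *Parp14* (−0.35) was among the lowest. By cluster, 28 of 34 list genes were lower in cluster 0 (median −0.21), 9 of 22 in cluster 1 (0.07), 18 of 30 in cluster 2 (−0.04) and 25 of 30 in cluster 3 (−0.46). The share of all genes that was lower in each cluster is not set beside these counts, so they are a description of the list alone. The summed level of the list in cluster 3 was nonetheless 3547 CPM in the lean and 3549 CPM in the obese library. Such a sum gives most weight to genes with many UMIs, *Ifi27l2a* first among them over all cells. The list medians by cluster did not follow the *Ly6a* ratios, which were −0.45 in cluster 0 and −1.09 in both cluster 1 and cluster 3. The part of interferon signalling in the Ly6 differences was not tested.

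*Cd69* was set in the same way against a list of 34 genes, the immediate early list. Most are immediate early genes, which T cell receptor signalling and other stimuli switch on within minutes. The list also holds heat shock genes, so its sums and counts are in part a heat shock measure. Over ranges of 15 or fewer, up to 24, and above 24 UMIs of this list, *Cd69* went from 184 through 264 to 356 CPM in the lean and from 184 through 303 to 496 CPM in the obese library. The log2 ratio of obese over lean was −0.01 (−0.26 to 0.24), 0.20 (0.00 to 0.40) and 0.48 (0.30 to 0.65) over these ranges. This order did not hold with cells thinned to 1000 UMIs, where the ratios were 0.44 (0.10 to 0.77), 0.06 (−0.22 to 0.33) and 0.32 (0.07 to 0.57). The highest range was 1.93 times the lowest in lean and 2.70 times in obese cells at 2000 UMIs, but 2.12 and 1.95 times at 1000 UMIs, so the climb itself was seen at both depths and its difference between libraries was not. The obese library had 911 cells in the highest range and the lean library 540. Of 32 measured genes of the list, 28 were higher in the obese library, 17 of them past the limit, with a median of 0.51. The highest were *Hspa1b* (1.76), a heat shock gene, and *Ier3* (0.96), the lowest *Jund* (−0.11) and *Rgs1* (−0.09). Over 7060 genes, 4075 were higher, and 2.45% passed the limit upward and 1.84% downward. Cell dissociation is known to raise immediate early genes, and with 1 library per diet its effect and that of diet cannot be told apart.

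*Ly6a* related to the immediate early list in the opposite way in lean cells, at 559, 420 and 298 CPM over the 3 ranges. In the obese library it was at 287, 233 and 266 CPM, so that the log2 ratio was −0.96 (−1.14 to −0.78) in the lowest range and −0.17 (−0.37 to 0.04) in the highest. *Ly6c2* had −0.59 (−0.73 to −0.44) in the lowest, which was −0.23 (−0.42 to −0.04) at 1000 UMIs, and 0.10 (−0.02 to 0.22) in the highest. In the highest range *Ly6a* still had −0.77 (−1.28 to −0.26) in cluster 3 but −0.01 (−0.31 to 0.30) in cluster 0. The clusters were unevenly spread over these ranges, and cells of the lowest range were deeper (medians of 12081 and 15778 UMIs) than those of the highest (5373.5 and 7320 UMIs).

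**Figure D5:**
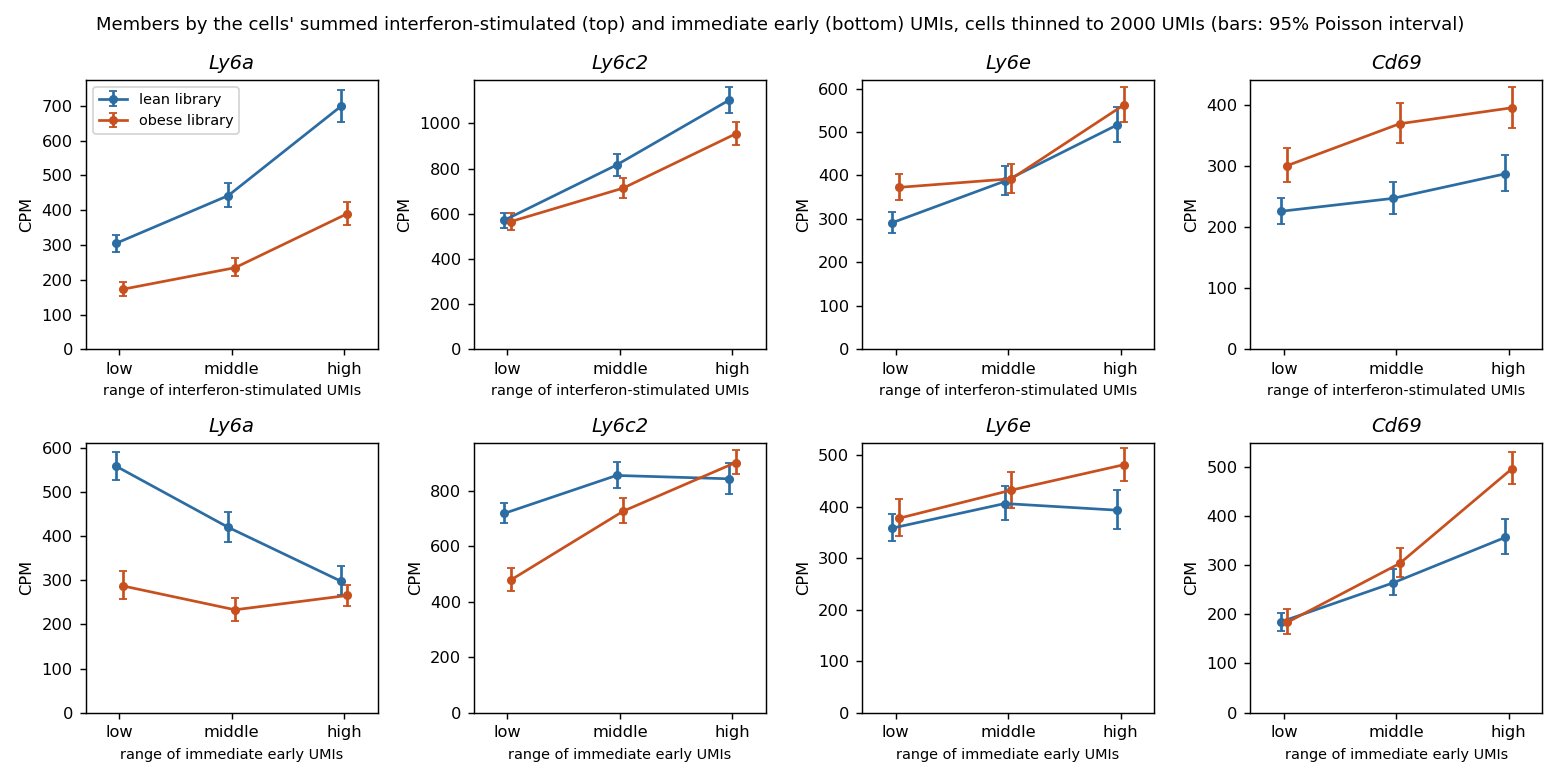
CPM (vertical axes from 0) of *Ly6a*, *Ly6c2*, *Ly6e* and *Cd69* in cells of low, middle and high summed UMIs of interferon-stimulated genes (top) and immediate early genes (bottom), every cell thinned to 2000 UMIs, with 95% Poisson bars. *Ly6a* climbs from 305 to 698 CPM in the lean and from 173 to 390 CPM in the obese library over the interferon ranges, and *Cd69* climbs in both libraries over the immediate early ranges, from 184 to 356 and 496 CPM. The gap that opens between its lines holds at this depth alone of the 2 tried, and at 1000 UMIs the climb is 2.12 times in lean and 1.95 times in obese cells.

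Partners of the members were counted from lists of known relations. Their counts, here and in the next paragraph, stand beside 4075 higher and 2985 lower of 7060 genes. Of these genes 2.45% passed the limit upward and 1.84% downward. Of 34 Ly6 relatives only *Ly6d*, a leading gene of cluster 5, was measured, at 10.2 and 5.12 CPM, lower past the limit (−0.99). Of 25 further integrin subunits 7 were measured, 4 higher and 3 lower, 0 past the limit, with a median of 0.035. *Itgb7* (51.8 and 68.9 CPM, 0.41) and *Itga4* (125 and 160 CPM, 0.36), whose product pairs with both β1 and β7, were highest, and *Itga1* (−0.32) and *Itgav* (−0.21) lowest. A list of CD44 linkers, sheddases and other genes related to CD44, such as *Hmmr* and *Spp1*, had 7 measured genes. Of these, 5 were higher and 2 lower, 0 past the limit, with a median of 0.06. They ran from *Adam17* (−0.10) and *Adam10* (−0.07) to *Hmmr* (0.16) and *Rdx* (0.23).

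Tissue exit genes set beside *Cd69* differed little. Of 7 measured, 6 were higher, beside 4075 of 7060 genes, and 0 passed the limit, with a median of 0.06. The S1P receptor gene *S1pr1* (33.2 and 37.3 CPM, 0.17) and its activator *Klf2* (510 and 586 CPM, 0.20) were highest, and *Gnai3* (−0.04) and *S1pr4* (0.01) lowest. Of 12 genes of CD5 signalling, 9 were lower, beside 2985 of 7060 genes, and 3 higher, with a median of −0.08. The phosphatase gene *Ptpn6* (174 and 119 CPM, −0.56) was the single one past the limit, followed by *Ubash3b* (−0.37), while *Ubash3a* (0.24) and *Cbl* (0.02) were highest. Of 18 other activation surface genes, 10 were lower and 8 higher, with a median of −0.05. *Entpd1*, which encodes the ectonucleotidase CD39 (49.4 and 28.3 CPM, −0.81), was lower past the limit and *Slc3a2*, the heavy chain of amino acid transporters (141 and 212 CPM, 0.59), higher past it, next to *Cd38* (−0.46) and the costimulatory receptor gene *Cd28* (0.45).

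The genes most like each member were sought by Pearson correlation of log2(CPM + 1) over 22 points, the 11 finer clusters in each library, among 5002 genes. The points share 2 libraries and differ in depth, so the values are a description. *Ly6a* was most like *Chtop* (0.92), *Ube2l6* (0.90) and *Gzmb* (0.90), *Ly6c2* most like *Epsti1* (0.89), *Hsd11b1* (0.88) and *Gimap9* (0.88), and *Ly6e* most like *Sp110* (0.88), *Oas3* (0.86) and *Trim30a* (0.84). *Cd69* was most like *Fos* (0.95), *Evl* (0.95) and *Pim1* (0.94). *Cd5* was most like *Cd6* (0.94), its neighbour 50.3 kb away on chromosome 19, then *Togaram1* (0.88) and *Rab11fip4* (0.86). *Cd44* was most like *Mob3a*, *Zyx* and *Myo1f* (0.90 for each), and *Itgb1* had the weakest likeness, to *Cd82* (0.79), *H2-K1* (0.75) and *Grap* (0.75). Among the members, *Cd44* and *Cd5* (0.65), *Cd44* and *Itgb1* (0.62) and *Ly6c2* and *Cd69* (0.61) were most alike, and *Ly6a* with *Ly6c2* gave −0.06.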

How the data were processed

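The authors deposited unnormalized UMI counts per gene and cell for 1 lean and 1 obese library. Per the labels' processing notes Cell Ranger 6.0.2 and the mm10 build were used. Gene and barcode lists were deposited beside the counts. Cells were kept by the limits given above. For each library or cluster the UMIs of its cells were added up and divided by their total (CPM), with exact Poisson intervals, Clopper-Pearson intervals for shares and exact conditional binomial intervals for log2 ratios, all at the 95% level. Intervals and floors cover counting error only. Those of CPM and of log2 ratios leave out variation between cells, so levels called separated differ beyond counting error alone. Clusters came from Seurat 5.3.0 with 2000 variable genes, without the 8 members and 25 genes of the study's heatmaps, 20 principal components, 20 neighbours and the lowest resolution (0.15) that gave 6 clusters, or 0.8 for finer clusters. Of clusters 0 to 5, a cluster was named from fixed markers where at least 3 were among its 10 leading genes. Finer clusters were described by their leading genes even where they met this rule. Cluster 4 met it for red cell markers but was called shallow, since 1 cell held 9157 of the 9193 hemoglobin UMIs. Cluster 0 met this for interferon-stimulated markers but was described by its leading genes, since 76.8% of its lean and 77.3% of its obese cells fell in a finer cluster led by *Gzma*. Thinning to 2000 UMIs left out 126 lean and 112 obese cells. Scrublet (scanpy 1.11.5) called 2 of 4745 cells doublets, which was taken as not having worked, so none was removed. Intervals were tested on simulated counts with counting error alone, which cannot show how they do where cells vary more. Thinning was tested on simulated cells for the depth reached. edgeR 4.0.16 gave TMM factors as an alternative. Named genes were the members, the 2 highest and 2 lowest of each list, and the 3 genes most like each member, except for a result that is not reported here. A gene name in a list was matched by symbol (*Mx1* and *Mx2* were not matched). Members, lists and comparisons were chosen with earlier results of these data known.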

Additional observations from a re-analysis of the deposited data

Results flagged for a closer look

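Each member listed here had obese over lean log2 ratios of opposite sign in 2 of clusters 0 to 3, with both counting intervals clear of 0. With 1 library per diet the difference between clusters was not tested. *Ly6c2* was at 0.10 in the proliferating-like cluster 1 and −0.92 in the effector-like cluster 3. Its share of cells in cluster 1 did not follow the ratio. With cells thinned to 2000 UMIs, 38.0% of lean (33.7% to 42.6%) and 34.8% of obese cells (30.9% to 38.9%) had a *Ly6c2* UMI. Those cells held means of 1.97 and 2.35 *Ly6c2* UMIs. *Itgb1* was at −0.11 in cluster 0 and 0.86 in cluster 3. *Cd44* was at −0.41 in cluster 2 and 0.45 in cluster 3, but at −0.26 and 0.047 with cells thinned to 2000 UMIs. Over 7 alternatives its ratio in cluster 2 ran from −0.41 to −0.13. Finer cluster 6, the lowest in *Cd44*, made up 19.9% of the lean and 47.1% of the obese cells of cluster 2. *Ly6e* was at −0.14 in cluster 2 and 0.25 in cluster 3, and thinning turned the first of these to 0.084.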

How the results depend on the processing

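No paired analysis was possible because each diet had 1 library, and no library could be left out. Over all cells, 2 members passed the limit as reported. The count was 1 with the mean of per-cell CPM, with thinning to 2000 or 1000 UMIs, with the same mix of clusters and with the same mix of finer clusters (the last chosen after the data were seen), *Ly6a* in each. It was 0 with a limit of 1, and *Cd69* (0.50) was added with a limit of 0.3. Within clusters 0 to 3 the count was 7 as reported, 12 with a limit of 0.3 and 2 with a limit of 1. It was taken over 7 measured members in each of clusters 0, 1 and 3 and 6 in cluster 2. The shares of all genes past limits of 0.3 and 1 are not set beside these counts. The ratio of *Ly6c2* over all cells turned to 0.066 with T cell transcripts as the total, and that of *Cd44* to −0.12 at 1000 UMIs. In cluster 2, *Ly6c2* turned to 0.18 with the same mix of finer clusters and *Ly6e* to 0.084 at 2000 UMIs, while *Ly6a* came to −0.42 with that mix. Over all cells *Ly6a* ranged from −1.03 to −0.66, *Cd69* from 0.40 to 0.68 and *Itgb1* from 0.30 to 0.73 over 13 alternatives each. Over all cells 59 alternative ratios lay inside the reported counting interval and 31 outside it with the same sign, and within clusters the numbers were 177 and 17. T cell transcripts as the total put every ratio higher by 1 amount. That left *Ly6a* at −0.78 and put *Cd69* (0.68) past the limit beside *Itgb1* (0.73). With 50 CPM as the limit, 11 of 23 measured genes of the immediate early list passed upward (47.8%) in place of 17 of 32 (53.1%). Of all genes 1.90% passed upward at 50 CPM and 2.45% at 10 CPM. The cause of these moves was not tested. Counting intervals of summed UMIs leave out variation between cells. They also leave out variation between mice and sorts, which these data cannot give.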
